A study of Mus musculus with 33 samples.

Results

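Bile acid synthesis and transport were followed through 10 genes, chosen by symbol: Cyp7a1, Cyp8b1, Cyp27a1, Cyp7b1, Slc27a5, Baat, Slc10a1, Abcb11, Nr1h4 and Nr0b2. All 10 were among the 21671 genes of the deposited RNA sequencing table, and all 10 passed the filter on low values in both arms of the study. The series examined the oncogene MYC and an activated form of β-catenin in the mouse liver, on the C57BL/6 strain. In the short-term arm, mice aged 6 to 8 weeks received AAV8-TBG-CRE, an adeno-associated virus that carries Cre recombinase under a hepatocyte promoter, into a vein, and livers were taken on day 4. These mice were wild type (WT, 5 livers), carried beta-cat Ex3, a β-catenin allele from which Cre removes exon 3 and so stabilises the protein (Ex3, 5 livers), carried R26-lslMYC, a MYC transgene at Rosa26 that is silent until Cre acts (MYC, 5 livers), or carried both alleles (MYC+Ex3, 5 livers). The WT livers of this arm thus received the Cre virus too. The tumour arm held liver nodules from mice with Alb-CreERT2, a tamoxifen-inducible Cre driven by the albumin promoter, together with R26-lslMYC (MYC tumours, 3) or with R26-lslMYC and beta-catEx3 (MYC+Ex3 tumours, 3). Its controls were 7 wild-type livers taken 4 days after an intraperitoneal dose of 4-hydroxytamoxifen (4-OHT livers). The labels give no age or treatment for the nodules and do not say whether the 4-OHT livers carried the Cre, so the tumours differ from their controls in tissue as well as in alleles. Whether the libraries of a group came from separate animals is given only through animal-like numbers in their titles, and p-values measure the spread between these libraries.

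Bile acids are made from cholesterol in hepatocytes, and their synthesis removes cholesterol and supplies the detergents of bile. Cyp7a1 encodes the rate-limiting enzyme of the classical pathway, Cyp8b1 the sterol hydroxylase that directs synthesis towards cholic acid, and Cyp27a1 and Cyp7b1 the enzymes of the alternative pathway. Slc27a5 encodes the ligase that activates bile acids, Baat the enzyme that joins them to taurine or glycine, Slc10a1 the sodium-dependent uptake carrier NTCP and Abcb11 the bile salt export pump. Nr1h4 encodes FXR, the nuclear receptor that senses bile acids, and Nr0b2 its target SHP, a repressor of Cyp7a1 and Cyp8b1.

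Sequence upstream of the transcription start was available from RefSeq (GRCm38.p6) for 6 of the 10 genes, in 7 windows of 250 bases. It is shown for 3 of them that span the feedback circuit: Cyp8b1, an enzyme whose level was low in the MYC+Ex3 tumours, Abcb11, a transporter known as a target of FXR, and Nr0b2, the repressor. The windows lie at chr9:121916306-121916555 on the minus strand for Cyp8b1, chr2:69342617-69342866 on the minus strand for Abcb11 and chr4:133553126-133553375 on the plus strand for Nr0b2, each ending at the base before the start. They are written 5′ to 3′ with matches to the searched motifs in capitals.
Cyp8b1: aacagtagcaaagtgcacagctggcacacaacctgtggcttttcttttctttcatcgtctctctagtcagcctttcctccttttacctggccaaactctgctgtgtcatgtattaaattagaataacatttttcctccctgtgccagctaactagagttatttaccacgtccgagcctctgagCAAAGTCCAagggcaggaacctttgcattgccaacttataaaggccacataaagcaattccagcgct
Abcb11: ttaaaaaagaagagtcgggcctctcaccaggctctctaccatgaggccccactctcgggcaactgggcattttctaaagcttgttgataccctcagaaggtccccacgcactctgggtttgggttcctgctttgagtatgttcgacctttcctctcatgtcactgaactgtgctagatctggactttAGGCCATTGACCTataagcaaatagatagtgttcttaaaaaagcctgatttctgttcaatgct
Nr0b2: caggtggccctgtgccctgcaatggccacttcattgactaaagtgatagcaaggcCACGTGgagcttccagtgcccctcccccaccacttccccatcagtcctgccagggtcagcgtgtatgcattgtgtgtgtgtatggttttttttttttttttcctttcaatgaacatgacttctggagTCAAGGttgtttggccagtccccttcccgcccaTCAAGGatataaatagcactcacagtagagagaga
The capitals in Cyp8b1 are CAAAGTCCA, a form of the HNF4A site, 67 to 59 bases before the start, which 0.384% of 32851 RefSeq windows of the same length hold on either strand. In Abcb11 they are AGGCCATTGACCT, 63 to 51 bases before the start, which matches AGGTCANTGACCT, the inverted repeat bound by FXR with its partner RXR, with at most 1 mismatch, as do 0.079% of windows. That stretch overlaps a single copy of the half-site AGGTCA, which 14.02% of windows hold. In Nr0b2 they are CACGTG, the E-box that MYC and other factors can bind, 195 to 190 bases before the start (6.02% of windows), and TCAAGG, the core read by NR5A2, at 68 to 63 and at 35 to 30 bases before it (12.5% of windows). A form of the TCF site, CTTTGAT, which 3.21% of windows hold, was in none of the 7 windows. The half-site AGGTCA was also found in Nr1h4 and in the window of one of the 2 starts of Slc10a1, and the window of Cyp27a1 held none of the motifs. These matches describe letters, and binding was not measured. The windows are on another genome build than the authors' mm9 and are used for their sequence alone.

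Levels are in RPKM (reads scaled to gene length in kilobases and to library depth). The arms are on different scales: library sums differed 4.16-fold, so levels are compared within an arm. Short-term libraries had 3.75 to 7.31 M reads in genes and tumour-arm libraries 6.65 to 9.82 M. The RPKM of the most abundant gene in a library was only 220 to 396 in the short-term arm and 42.9 to 67.5 in the tumour arm. Slc27a5 stood at a median of 74.8% of that top value in WT livers and Cyp27a1 at 61.8%. How far this compresses the levels, spreads and changes of abundant genes was not tested. Rankings between genes, and ratios of 2 genes, therefore hold for the deposited RPKM only. Each gene rested on at least 25 reads in every library, and on up to 5028. By Xist and Ddx3y, the males numbered 2 among 5 WT, 3 among 5 Ex3, 3 among 5 MYC, 4 among 5 MYC+Ex3 and 4 among 7 4-OHT livers. All 3 MYC tumours were male, as were 2 MYC+Ex3 tumours. MYC liver replicate 5 carried both Xist (86.1 RPKM) and Ddx3y (4.74 RPKM) and was taken as female. In 10 short-term libraries Krt5, Krt14 and Krt17, keratins of the epidermis, summed to at least 3.95 RPKM, against at most 0.398 in the other 10. These keratin libraries were 3 WT, 3 Ex3, 1 MYC and 3 MYC+Ex3 livers. MYC tumour replicate 1 stood apart from the other MYC tumours in these genes: of the 10 genes 6 lay inside the range of the 4-OHT livers, 3 above it and 1 below. The same was not counted over all genes. Hepatocyte identity was checked with 14 further hepatocyte genes, none of them at 0 in any group. Their summed RPKM was 2449.9 to 2961 in WT, 2492 to 3283 in Ex3, 2131 to 2775 in MYC and 1769 to 2830 in MYC+Ex3 livers. In the tumour arm it was 415 to 566 in 4-OHT livers, 326 to 582 in MYC tumours and 304 to 426 in MYC+Ex3 tumours.

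In WT livers the 10 genes divided into steady and variable ones. Slc27a5 was the most abundant, at 231 ± 13.5 RPKM (SD, n = 5), followed by Cyp27a1 at 197 ± 9.12, Baat at 184 ± 15.5, Slc10a1 at 165 ± 14.03, Cyp8b1 at 161 ± 39.3 and Abcb11 at 161 ± 11.6. Nr1h4 stood at 80.9 ± 2.89, Cyp7b1 at 77.8 ± 73.3, Cyp7a1 at 66.5 ± 41.1 and Nr0b2 at 56.6 ± 22.0. The coefficient of variation between WT livers was 3.57% for Nr1h4, 4.63% for Cyp27a1 and 5.83% for Slc27a5, against 61.8% for Cyp7a1 and 94.1% for Cyp7b1. In 4-OHT livers Nr1h4 was again the steadiest (10.9%) and Cyp7b1 the most variable (72.6%).

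**Figure D1:**
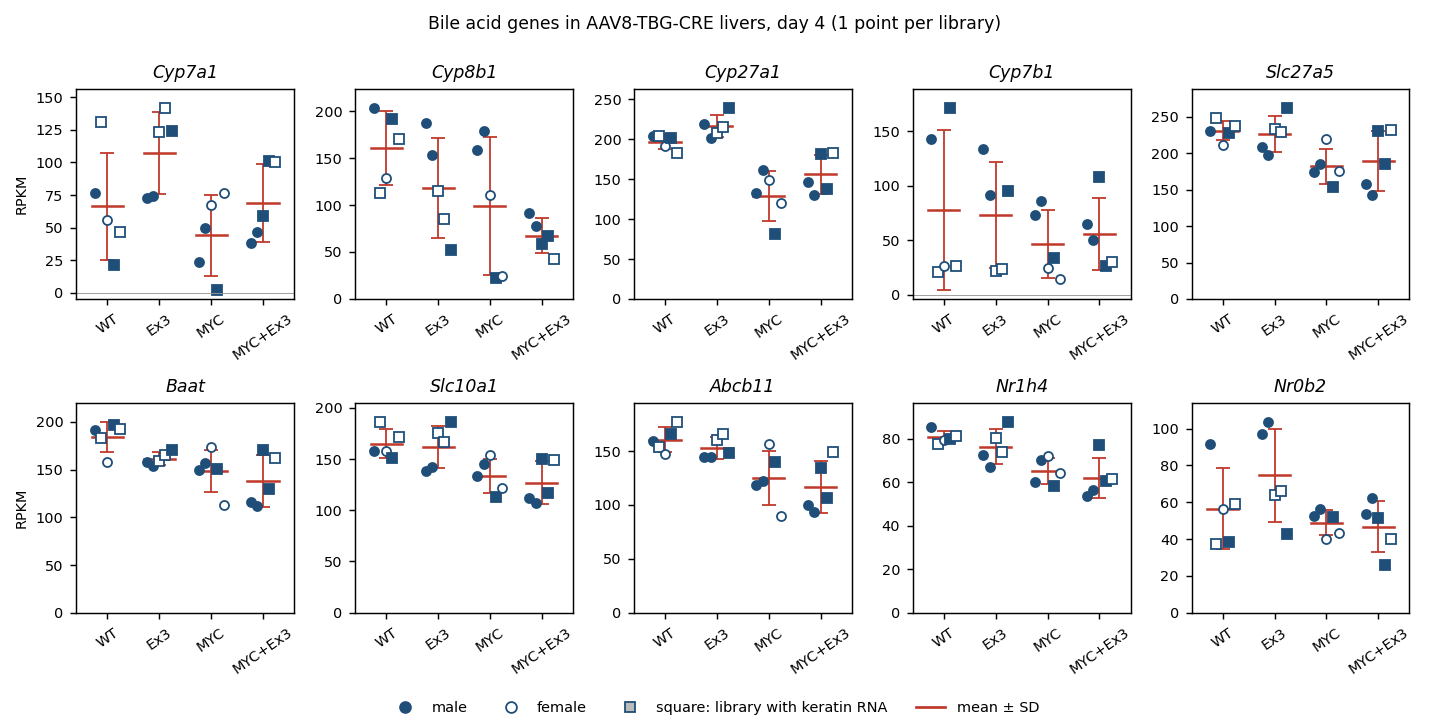
RPKM of each of the 10 genes (y axes, starting at or just below 0) in the 20 short-term livers by group (x axes), with the mean and SD of each group in red. Filled points are males, open points females and squares libraries with keratin RNA. Cyp27a1 in the MYC livers lies below every WT liver, while Cyp7a1 and Cyp8b1 spread widely within groups.

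Ex3 alone was compared with WT to show the early response to stabilised β-catenin. None of the 10 genes was called (0 of 10 by limma at an adjusted p under 0.05, and 0 of 10 at an unadjusted p under 0.05), against 0.132% of all 13688 genes tested. With so few calls over all genes, a count of 0 does not set these genes apart or show that they were unchanged. Cyp7a1 read 72.9, 74.4, 123, 142 and 124 RPKM in the 5 Ex3 livers, against 76.9, 131, 56.1, 21.7 and 46.9 in the WT livers. The groups overlapped, with 3 of 5 Ex3 livers above 4 of 5 WT livers. Its log2 change was 0.85 ± 0.63 (SE; limma adjusted p = 0.991), and 0.16 among libraries without keratin RNA. Cyp8b1 read 187, 153, 115, 85.4 and 51.7 RPKM in Ex3 livers and 203, 113, 128, 191 and 170.0 in WT livers. These values overlapped too, and the log2 change was -0.54 ± 0.49 (limma adjusted p = 0.992). The other 8 genes had log2 changes between -0.19 (Baat) and 0.40 (Nr0b2). In the same comparison 3 of 9 genes of pericentral hepatocytes, the zone where β-catenin is active in the normal liver, rose.

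MYC alone was compared with WT to show its early effect on the same liver. Of the 10 genes 3 fell and 0 rose: Cyp27a1, Nr1h4 and Abcb11. Of all genes tested 5.36% were called lower and 16.9% higher, that is 734 and 2313 genes, which became 1302 and 1880 after each library was rescaled by its median ratio. All 10 had a negative change, with a median log2 change of -0.37 against 0.07 for all genes tested. The 14 further hepatocyte genes all had a negative change too, with a median of -0.20. Cyp27a1, the enzyme that opens the alternative pathway, read 132, 162, 149, 81.4 and 119.6 RPKM in MYC livers and 204, 204, 192, 202 and 183 in WT livers. Every MYC liver lay below every WT liver, and the log2 change was -0.64 ± 0.14 (limma adjusted p = 0.00224). This call held without any 1 of the 20 libraries. It ended among males only, where the WT livers numbered 2 and the change was -0.75 (limma adjusted p = 0.0635).

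Nr1h4, the bile acid receptor, read 60.3, 70.5, 71.9, 58.5 and 64.1 RPKM in MYC livers and 85.5, 77.8, 79.6, 80.0 and 81.5 in WT livers. The groups did not overlap, and the log2 change was -0.31 ± 0.10 (limma adjusted p = 0.0255). Abcb11, the export pump, read 118, 122, 156, 139 and 89.7 RPKM against 159.6, 153, 147, 166 and 177. MYC liver replicate 3 lay within the WT range and the other 4 below it, and the log2 change was -0.38 ± 0.13 (limma adjusted p = 0.0473), close to the threshold. With 1 of the 20 libraries removed at a time, the call for Nr1h4 remained in 17 fits and that for Abcb11 in 7. Slc27a5, Slc10a1 and Baat were just short of it, with log2 changes of -0.35, -0.31 and -0.32 and limma adjusted p-values of 0.0510, 0.0622 and 0.0651.

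The classical pathway genes varied most among MYC livers. Cyp7a1 read 23.9, 49.7, 67.3, 2.37 and 76.9 RPKM, and Cyp8b1 read 159, 179, 111, 21.9 and 24.7. MYC liver replicate 4, the 1 keratin library of that group, was the lowest for both genes, and replicate 5 was low for Cyp8b1 but the highest for Cyp7a1. Cyp7a1 had a log2 change from WT of -0.96 ± 0.63 (limma adjusted p = 0.295) and Cyp8b1 one of -1.14 ± 0.49 (limma adjusted p = 0.0998), neither past the threshold. Without replicate 4 the change of Cyp7a1 was -0.18 and that of Cyp8b1 -0.73. With the keratin RNA of a library as a covariate Cyp8b1 passed the threshold (-1.48, limma adjusted p = 0.0204).

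MYC+Ex3 livers were compared with WT, with Ex3 and with MYC livers to separate the effects of the alleles. Against WT 4 of 10 genes fell and 0 rose, where 6.18% of all genes tested were called lower and 17.9% higher (846 and 2455 genes, or 1301 and 2049 after rescaling). The 4 were Nr1h4, Baat, Abcb11 and Slc10a1, the receptor, the conjugating enzyme and both transporters. Nr1h4 read 53.8, 56.2, 77.2, 60.4 and 61.5 RPKM, and all 5 livers lay below all 5 WT livers (log2 change -0.39 ± 0.10, limma adjusted p = 0.00572). Baat read 116, 112, 171, 129 and 163 RPKM against 191, 183, 158, 197 and 193 in WT livers. Replicates 3 and 5 lay above the lowest WT liver (log2 change -0.43 ± 0.12, limma adjusted p = 0.0127). Abcb11 read 100.05, 93.9, 134, 106 and 149 RPKM, of which only replicate 5 reached the WT range (log2 change -0.48 ± 0.13, limma adjusted p = 0.0128). Slc10a1 read 112, 107, 150.1, 116 and 149 RPKM against 158, 186, 157, 151 and 172, and the groups did not overlap (log2 change -0.39 ± 0.12, limma adjusted p = 0.0201). The call for Abcb11 and that for Baat each held under all 10 other settings tried and without any 1 library, while that for Slc10a1 remained in 17 of 20 fits with 1 library removed. Among males only, with 2 WT livers, the calls for Nr1h4 and Slc10a1 ended at changes of -0.43 and -0.36 (limma adjusted p = 0.116 and 0.195).

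Cyp8b1 read 91.8, 77.6, 58.9, 66.6 and 42.2 RPKM in MYC+Ex3 livers, all below the lowest WT liver at 113. Its log2 change of -1.26 ± 0.49 was the largest of the 10 genes in this comparison but did not pass the threshold (limma adjusted p = 0.0669). The fit shares 1 estimate of the spread with the Ex3 and MYC livers, where the SD of Cyp8b1 was 53.5 and 73.5 RPKM. Fitted on the MYC+Ex3 and WT livers alone it passed (limma adjusted p = 0.00129), and the authors' deposited table gives -1.27 with an adjusted p of 3.79e-08. Cyp27a1 and Slc27a5 had log2 changes of -0.35 and -0.31 (limma adjusted p = 0.0772 and 0.0804). Cyp7a1 read 38.5, 46.5, 58.7, 101 and 101 RPKM, within the WT range, and its log2 change was 0.17 (limma adjusted p = 0.875). Among libraries without keratin RNA that change was -0.62.

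Against Ex3 livers 4 of 10 genes were lower in MYC+Ex3 livers and 0 higher, where 4.7% of all genes tested were called lower and 16.4% higher (644 and 2249 genes, or 956 and 1940 after rescaling). Cyp27a1 read 147, 131, 182, 138 and 183 RPKM, below all Ex3 livers, which ran from 201 to 239 (log2 change -0.48, limma adjusted p = 0.0179). Abcb11, Slc10a1 and Nr1h4 changed by -0.41, -0.36 and -0.31 (limma adjusted p = 0.0347, 0.0354 and 0.0300), and the log2 change of Cyp8b1 was -0.72 (limma adjusted p = 0.322). These calls depended on single libraries: without MYC+Ex3 replicate 2 the count was 0, without MYC+Ex3 replicate 1, replicate 4 or Ex3 replicate 3 it was 1, and without Ex3 replicate 4 or 5 it was 2. Against MYC livers 0 of 10 genes were called, with 1 at an unadjusted p under 0.05 and 0.19% of all genes called in either direction, so this count too is near the share of all genes. The log2 change of Cyp7a1 was 1.14 (limma adjusted p = 1), which became -0.23 among libraries without keratin RNA. The test of whether the 2 alleles acted differently together than the sum of each alone called 0 of 10 genes, 0 at an unadjusted p under 0.05, and 0% of all 13688 genes tested. The comparisons with WT share their control livers.

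**Figure D2:**
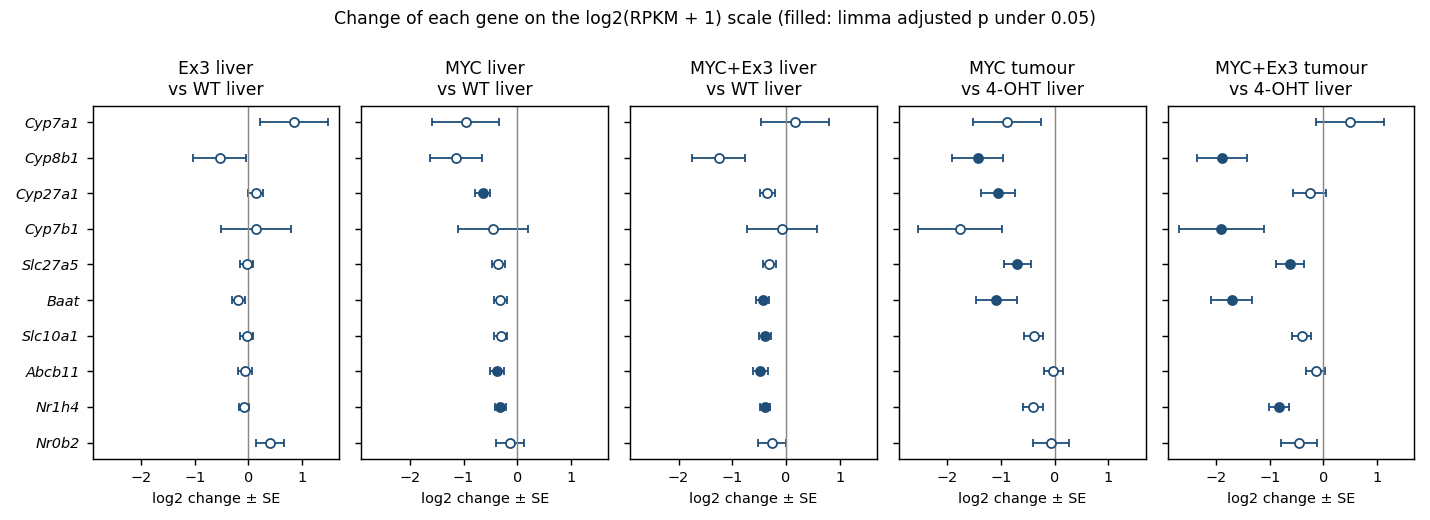
Log2 change (x axes, on the log2(RPKM + 1) scale, with its standard error as the bar) of each gene (y axes) in 5 comparisons, with filled points for an adjusted p under 0.05. The filled points lie left of 0 in the 4 comparisons that have any, and the Ex3 comparison has none.

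Cyp7b1 differed between the sexes. In WT livers it read 143 and 171 RPKM in the 2 males and 21.1, 26.6 and 26.8 in the 3 females. In Ex3 livers the males read 134, 91.3 and 94.9 and the females 21.8 and 23.8. Every male of these 2 groups lay above every female. In MYC livers the males read 73.2, 85.7 and 33.8 and the females 24.7 and 14.5, and in MYC+Ex3 livers the males read 65.3, 50.1, 108 and 26.4 and the female 30.5, so that male replicate 4 lay below the female. The sex term of the fit, chosen after the values were seen, gave a log2 difference of 1.89 ± 0.25, higher in males (limma adjusted p = 8.21e-05), where 3.09% of all genes were called for sex in either direction. Of the other 9 genes 0 were called for sex, and 1, Cyp7a1, had an unadjusted p under 0.05, with a difference of -1.11 (higher in females, limma adjusted p = 0.160). The change of Cyp7b1 from WT was -0.45 for MYC (limma adjusted p = 0.674) and -0.081 for MYC+Ex3 (limma adjusted p = 0.945). With sex in the fit it was -0.83 for MYC (limma adjusted p = 0.0897), while for MYC+Ex3 it was -0.84 (limma adjusted p = 0.103). Among males only, with 2 WT livers, it was -1.38 for MYC and -1.48 for MYC+Ex3 (limma adjusted p = 0.0914 and 0.0545).

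**Figure D3:**
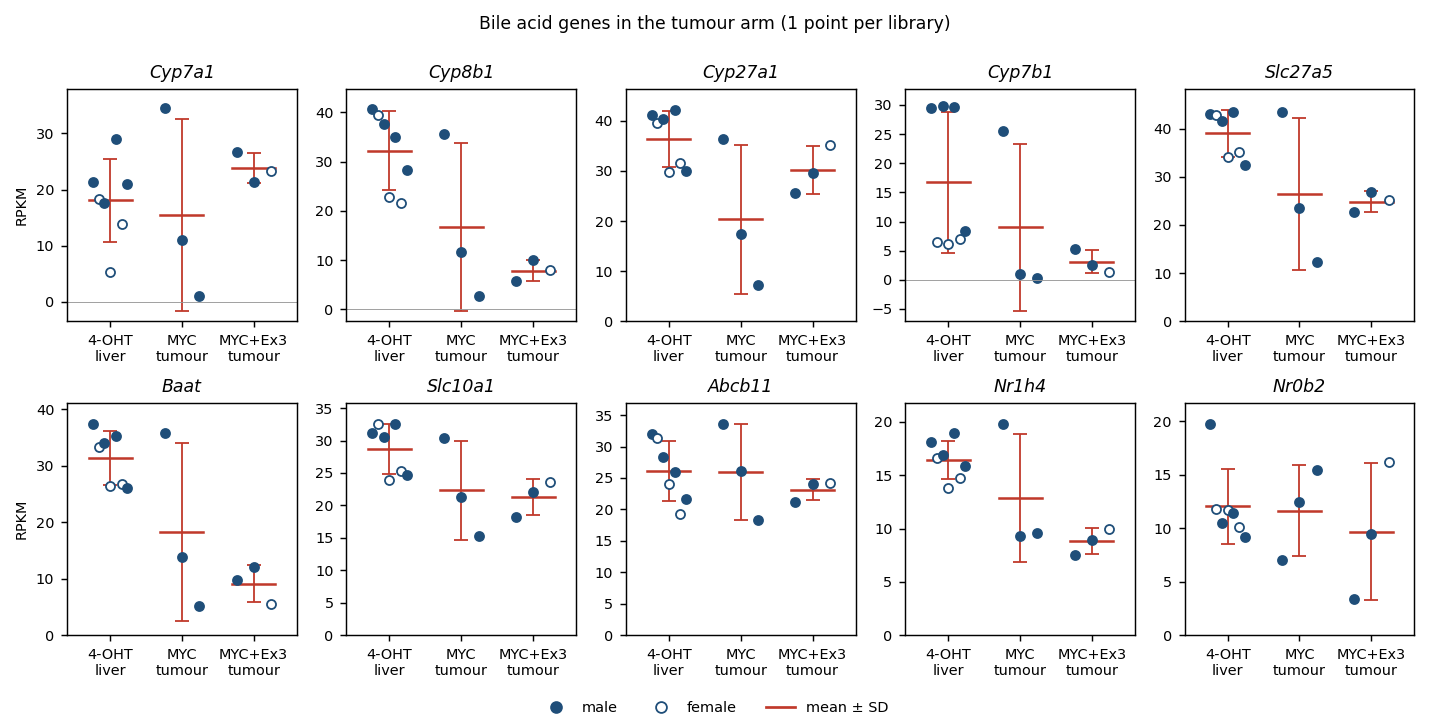
RPKM of each of the 10 genes (y axes) in the 7 4-OHT livers, 3 MYC tumours and 3 MYC+Ex3 tumours (x axes), with the mean and SD in red. Filled points are males and open points females. MYC tumour replicate 1, the leftmost MYC tumour point, lies inside the range of the 4-OHT livers for 6 genes, above it for Cyp7a1, Abcb11 and Nr1h4, and below it for Nr0b2.

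The tumours were compared with the 4-OHT livers to show the state of the same genes in established nodules. In bulk tissue, fewer hepatocytes and less RNA of a gene per hepatocyte cannot be told apart. In MYC tumours 4 of 10 genes fell and 0 rose: Cyp27a1, Cyp8b1, Baat and Slc27a5. Of all 11854 genes tested 13.7% were called lower and 36.2% higher. The median log2 change of the 10 genes was -0.79, against 0.19 for all genes tested and -0.24 for the 14 further hepatocyte genes. Those 14 all had a negative change. After each library was rescaled by its median ratio, which moved that median of all genes to 0.01, 6 of the 10 genes were called lower, and the split over all genes moved from 4286 higher and 1621 lower to 3195 higher and 2788 lower.

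The coefficient of variation was larger in MYC tumours than in any other group for 9 of the 10 genes, all but Nr0b2. The same was not counted over all genes, so this is not shown to be particular to the 10 genes. Cyp27a1 read 36.3, 17.4 and 7.22 RPKM in replicates 1 to 3, against a lowest value of 29.8, a median of 39.6 and a highest of 42.1 in 4-OHT livers (log2 change -1.05 ± 0.32, limma adjusted p = 0.0133). Cyp8b1 read 35.7, 11.6 and 2.72, against 21.5, 35.1 and 40.7 (-1.43 ± 0.47, limma adjusted p = 0.0215). In both genes replicate 1 lay inside the range of the 4-OHT livers, and replicates 2 and 3 lay below it. Baat, the conjugating enzyme, read 35.8, 13.8 and 5.25, against 26.1, 33.3 and 37.4 (-1.09 ± 0.38, limma adjusted p = 0.0271). Slc27a5, the ligase before it, read 43.4, 23.6 and 12.4, against 32.5, 41.6 and 43.5 (-0.70 ± 0.25, limma adjusted p = 0.0330). The same order of the 3 tumours held in both: replicate 1 among the livers, and replicate 3 the lowest.

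Cyp7a1 and Cyp7b1 spanned the widest range among MYC tumours. Cyp7a1 read 34.5, 11.0 and 1.00 RPKM, against 5.29 to 29.1 with a median of 18.3 in 4-OHT livers, so that replicate 1 was above and replicate 3 below every control (-0.88 ± 0.64, limma adjusted p = 0.264). Cyp7b1 read 25.6, 1.08 and 0.313 against 6.12 to 29.8 with a median of 8.36 (-1.76 ± 0.79, limma adjusted p = 0.0772). The uptake carrier Slc10a1 read 30.3, 21.3 and 15.3, and the export pump Abcb11 33.5, 26.0 and 18.3, where the 4-OHT livers ran from 24.0 to 32.5 and from 19.2 to 32.0. Slc10a1 had a log2 change of -0.39 (limma adjusted p = 0.0824), Abcb11 one of -0.03 (limma adjusted p = 0.917), and that of Nr1h4 was -0.40 (limma adjusted p = 0.0872). All 3 MYC tumours were male, and the 4 male 4-OHT livers read 29.5, 29.8, 29.7 and 8.36 for Cyp7b1, against 6.12 to 7.07 in the females.

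The calls in MYC tumours rested on single tumours. Without replicate 1, 8 of 10 genes were called lower, Cyp7a1 among them (-1.84, limma adjusted p = 0.0139), and without replicate 3 the count was 0 and Cyp7a1 turned to 0.24. Without replicate 2 the count was 2, and among males only, a comparison added after the data were seen, it was 0. With the 4-OHT livers whose titles begin with S14 as the only controls the count was 1, and with those whose titles begin with S15 it was 0. These counts are not set beside the share of all genes called in the same fits, so they are not shown to be particular to the 10 genes.

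In MYC+Ex3 tumours 5 of 10 genes fell and 0 rose: Baat, Nr1h4, Cyp8b1, Slc27a5 and Cyp7b1. Of all genes tested 18.4% were called lower and 42.3% higher. The median log2 change of the 10 genes was -0.54 against 0.23 for all genes and -0.36 for the 14 further hepatocyte genes. Those 14 were again all negative. Rescaling gave 6 of the 10 genes lower, with 3996 higher and 3242 lower over all genes in place of 5011 and 2178. Both tumour groups were set against the same 7 livers.

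Cyp8b1 read 5.79, 9.94 and 7.92 RPKM, against 40.7, 39.6, 37.6, 22.7, 35.1, 21.5 and 28.3 in the 7 4-OHT livers. The highest tumour stood under the lowest liver, and the log2 change was -1.89 ± 0.47 (limma adjusted p = 0.00326). Baat read 9.77, 12.1 and 5.59 RPKM against 37.4, 33.3, 34.0, 26.4, 35.3, 26.7 and 26.1, again with no overlap (-1.71 ± 0.38, limma adjusted p = 0.00134). Nr1h4 read 7.54, 8.90 and 9.97 RPKM against 18.1, 16.6, 16.9, 13.8, 18.9, 14.7 and 15.9, with no overlap (-0.83 ± 0.19, limma adjusted p = 0.00155). These 3 calls, for a sterol hydroxylase, the conjugating enzyme and the receptor, held under all 10 other settings and without any 1 of the 13 libraries. Slc27a5 read 22.6, 26.9 and 25.1 RPKM, below the lowest 4-OHT liver at 32.5 (-0.62 ± 0.25, limma adjusted p = 0.0459). Cyp7b1 read 5.23, 2.63 and 1.39 RPKM, below the lowest 4-OHT liver at 6.12 (-1.91 ± 0.79, limma adjusted p = 0.0492). Those 2 calls were close to the threshold: that of Slc27a5 remained in 3 of 13 fits made with 1 library removed, and that of Cyp7b1 in 6 of 13.

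Cyp7a1, the other gene of the classical pathway, did not pass the test in these tumours. It read 26.7, 21.4 and 23.3 RPKM, within the upper part of the 4-OHT range of 5.29 to 29.1, and its log2 change was 0.50 ± 0.64 (limma adjusted p = 0.511). Its change was positive under every setting tried, from 0.12 to 0.72. Cyp27a1 read 25.6, 29.6 and 35.2 RPKM, and its log2 change was -0.26 (limma adjusted p = 0.490). Slc10a1 read 18.2, 22.1 and 23.7 (-0.41, limma adjusted p = 0.0606), and Abcb11 read 21.2, 24.0 and 24.3 (-0.15, limma adjusted p = 0.495). Nr0b2 read 3.40, 9.49 and 16.2 RPKM, the largest spread of the 10 genes in these tumours relative to the mean (coefficient of variation 65.9%), and its log2 change was -0.46 ± 0.34 (limma adjusted p = 0.249).

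The direct comparison of MYC+Ex3 with MYC tumours called 0 of 10 genes, 0 at an unadjusted p under 0.05, where 4.13% of all genes were called in either direction. The largest differences were those of Cyp7a1 (1.38 ± 0.75, limma adjusted p = 0.370) and Cyp27a1 (0.79 ± 0.37, limma adjusted p = 0.290), and that of Cyp8b1 was -0.46 (limma adjusted p = 0.741). Without MYC tumour replicate 1, Cyp7a1 (2.34, limma adjusted p = 0.0454) and Cyp27a1 (1.33, limma adjusted p = 0.00975) were called higher, Cyp8b1 turned to 0.35 and Baat was at 0.021. Without MYC tumour replicate 3 the picture differed: Cyp7a1 was at 0.26 (limma adjusted p = 0.833) and Cyp27a1 at 0.24 (limma adjusted p = 0.658), while Baat was called lower (-1.26, limma adjusted p = 0.0436), from -0.62 (limma adjusted p = 0.517) with all tumours. For sex in the tumour arm 0 of 10 genes were called, where 0.0506% of all genes were, and Cyp7b1 had a log2 difference of 1.43, higher in males (limma adjusted p = 0.995).

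**Figure D4:**
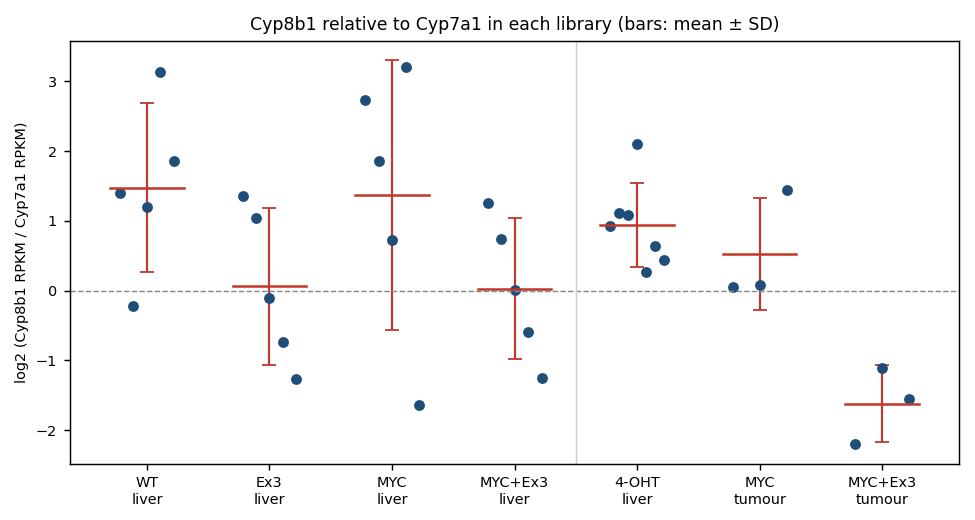
Log2 ratio of Cyp8b1 to Cyp7a1 RPKM (y axis) in each of the 33 libraries by group (x axis, short-term arm left of the line), with the mean and SD in red. The 3 MYC+Ex3 tumours lie between -2.21 and -1.11, below all 4-OHT livers and all MYC tumours.

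Other genes of the pathway were taken from 3 lists: 13 genes of bile acid synthesis, 15 of bile acid and biliary lipid transport and 17 regulators. Their counts are descriptive. In MYC livers, where 5.36% of all genes were called lower and 16.9% higher, 2 of 12 synthesis genes tested fell, the peroxisomal genes Slc27a2 (-0.39, limma adjusted p = 0.0145) and Hsd17b4 (-0.24, limma adjusted p = 0.0419), and 0 rose. Of 15 transport genes 3 fell, Abcg8 (-1.35), Abcg5 (-0.95) and Slco1b2 (-0.50), of which the first 2 form the pump that moves cholesterol into bile. Slc51b, which encodes the β subunit of a basolateral bile acid exporter and is an FXR target, rose by a log2 change of 2.17 (limma adjusted p = 0.00415). It read 0.962 ± 0.567 RPKM in WT livers and 13.7 ± 19.9 in MYC livers, the latter led by replicate 4. Its partner Slc51a was below 1 RPKM on average in every group. Of 15 regulators 2 fell, Ppara (-0.90) and Rxra (-0.50), the partner receptor of FXR, and 0 rose.

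In MYC+Ex3 livers against WT, where the shares of all genes were 6.18% lower and 17.9% higher, 2 of 12 synthesis genes fell, Slc27a2 (-0.34) and Cyp2a12 (-0.30), a mouse bile acid hydroxylase, and 2 rose, Acot8 (0.59) and Amacr (0.37), both of the peroxisomal steps. Of 15 transport genes Slco2b1 (-0.81) and Atp8b1 (-0.42) fell and Abcc4 (0.77), a basolateral efflux pump, rose. Of 15 regulators Cebpa (-0.35) and Hnf4a (-0.29), hepatocyte transcription factors, fell and 0 rose. Against Ex3 livers, where 4.7% of all genes were called lower and 16.4% higher, Slc27a2, Cyp2a12 and Hsd17b4, Slco2b1 and Abcb4, and Rxra fell, and Abcc4 rose (0.84). In Ex3 livers against WT, and in MYC+Ex3 against MYC livers, 0 genes of the 3 lists were called. At an unadjusted p under 0.05 there were 2, 3 and 1 in the synthesis, transport and regulator lists in the first of these and 1, 1 and 0 in the second.

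In the tumours the transport list held more called genes than the synthesis or regulator list. Genes called in either direction were common over all genes too, so the number called does not set the transport list apart. Beside all list counts in tumours stand the shares of all genes, 13.7% lower and 36.2% higher in MYC tumours and 18.4% lower and 42.3% higher in MYC+Ex3 tumours. In MYC tumours 6 of 14 transport genes fell, among them Slco1a1 (-2.33), Slc10a2 (-2.28), Slco2b1 (-1.95) and Abcc3 (-1.39), and Slc51b rose (2.32, limma adjusted p = 0.000138). In MYC+Ex3 tumours 5 of 14 fell, among them Abcc3 (-2.74), Slco2b1 (-2.64), Slc10a2 (-2.45) and Slco1a1 (-2.27), and 3 rose: Slc51b (1.98), Abcc4 (0.81) and Abcg8 (0.73). Slco1a1 and Slco2b1 encode organic anion uptake carriers and Abcc3 a basolateral efflux pump. Abcc3 read 20.8 ± 1.84 RPKM in 4-OHT livers (n = 7), 10.5 ± 10.7 in MYC tumours (n = 3) and 2.28 ± 0.585 in MYC+Ex3 tumours (n = 3). Slc51b read 0.833 ± 0.434, 9.36 ± 5.72 and 6.39 ± 2.54. In the direct comparison of the tumours Slco2b1 was lower with Ex3 (-0.69, limma adjusted p = 0.0459) and Abcc4 higher (1.24, limma adjusted p = 0.0112).

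Of 11 synthesis genes tested in the tumour arm, Cyp2a12 (-2.88) and Cyp2c70 (-1.20), the latter the mouse enzyme of muricholic acid, fell in MYC tumours and Cyp39a1 (0.51), an oxysterol hydroxylase, rose. In MYC+Ex3 tumours Cyp2a12 (-3.02) fell and Cyp39a1 (0.80) and Acot8 (0.41) rose. Of 14 regulators Ppara (-0.74) and Foxa2 (-0.39) fell in MYC tumours. In MYC+Ex3 tumours 5 fell, among them Ppara (-0.85), Cebpa (-0.59), Nr1h3 (-0.57) and Fgfr4 (-0.43), and 2 rose, Klb (0.77) and Mafg (0.55). Fgfr4 and Klb encode the 2 parts of the receptor for the gut hormone that represses Cyp7a1, so 1 part of it fell while the other rose.

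Markers of hepatocyte zones and other cell types changed too. The called pericentral genes fell with MYC and rose with MYC+Ex3, while the called bile acid genes fell in all 4 comparisons. Shares of all genes called lower and higher were 5.36% and 16.9% in MYC livers and 6.18% and 17.9% in MYC+Ex3 livers. For tumours these shares were 13.7% and 36.2% with MYC, and 18.4% and 42.3% with MYC+Ex3. Of 9 pericentral genes 6 were lower and 0 higher in MYC livers, 0 and 3 in MYC+Ex3 livers, 9 and 0 in MYC tumours, and 0 and 4 in MYC+Ex3 tumours. Of 8 periportal genes 1 was lower and 0 higher, 3 and 0, 1 and 1, and 7 and 0 in the same 4 comparisons, and all 8 proliferation genes rose in each of them. The summed pericentral RPKM was 129 to 182 in 4-OHT livers, 35.4 to 98.5 in MYC tumours and 183 to 200.2 in MYC+Ex3 tumours, while the periportal sum was 177 to 238, 147 to 188 and 37.8 to 95.3. Of 7 macrophage genes 5 fell in MYC tumours and 4 in MYC+Ex3 tumours, of 6 endothelial genes 4 in each, and of 4 erythroid genes 4 rose in MYC+Ex3 tumours. In MYC livers 1 macrophage gene rose and 1 endothelial gene fell. Of 7 stellate cell and fibroblast genes 4 rose and 2 fell in MYC tumours, 2 rose and 3 fell in MYC+Ex3 tumours, 2 rose and 0 fell in MYC livers, and 1 rose and 2 fell in MYC+Ex3 livers. Of 4 cholangiocyte genes tested in the tumour arm 0 were called in MYC tumours and 3 fell in MYC+Ex3 tumours, and of 8 tested in the short-term arm 0 were called in MYC or MYC+Ex3 livers against WT, with 1 at an unadjusted p under 0.05 in each by limma. The summed RPKM of the cholangiocyte genes was 15.5 to 24.6 in 4-OHT livers, 10.2 to 26.1 in MYC tumours and 5.86 to 13.6 in MYC+Ex3 tumours. No listed gene of these cell types was at 0 throughout a group. Of 14 hepatocyte genes 0 were called lower in MYC tumours and 6 in MYC+Ex3 tumours, 2 in MYC livers and 1 in MYC+Ex3 livers, with 0 higher in any of them. All 14 had a negative change in each of these 4 comparisons. The part of these shifts in the bile acid results was not tested.

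The authors' deposited table gives its own changes for the same contrasts. It calls 6 of the 10 genes lower in MYC livers, 6 in MYC+Ex3 livers, 5 in MYC tumours and 8 in MYC+Ex3 tumours, and 0 in Ex3 livers and in both comparisons of MYC+Ex3 with MYC. No gene of the 10 is called higher in it. For MYC+Ex3 against MYC tumours it holds no adjusted p for Cyp7b1. Cyp8b1, called by limma in MYC tumours, is not called in the authors' deposited table (-0.98, its adjusted p = 0.0646). The share of all genes called in that table was not computed, so these counts have no background beside them. For MYC+Ex3 tumours the authors' deposited table has log2 fold changes of -2.21 for Cyp8b1, -1.93 for Baat and -1.12 for Nr1h4, and for Cyp7a1 of 0.19.

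Genes with the profile nearest to Cyp7a1 and to Cyp8b1 were sought by the root mean square difference of centred log2(RPKM + 1) values over the libraries of an arm. Over the 20 short-term libraries the nearest to Cyp7a1 were Cyp4f15 (0.59), Notum (0.67) and Cyp4a10 (0.67), where Cyp7a1 itself had an SD of 1.22. The nearest to Cyp8b1 there were Rnf125 (0.53), Atxn1 (0.58) and Ypel2 (0.58), against an SD of 0.94. Over the 13 libraries of the tumour arm the nearest to Cyp7a1 were Upp2 (0.49), Hspb8 (0.50) and Igfbp2 (0.51), against an SD of 1.12, and to Cyp8b1 Wfdc21 (0.20), Adh4 (0.30) and Plscr2 (0.31), against 1.15. No gene was among the nearest of both Cyp7a1 and Cyp8b1 in either arm.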

How the data were processed

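Total RNA of 33 mouse livers and liver nodules was sequenced from strand-specific libraries. The deposited values are RPKM per gene, with 1 column per library. Tools named in the submitters' processing notes are TopHat2 2.0.8, SAMtools, featureCounts 1.4.5-p1 and DESeq2, with genome build mm9. The steps they served, and any removal of duplicate reads, are not given in the sources used here. The authors' deposited table also holds log2 fold changes and adjusted p-values of their own comparisons, which are quoted only where that table is named. Read numbers, and so the totals, were recovered from the RPKM steps of each gene (tolerance 0.001), which gave whole reads for 100% of the 20485 genes that had any. No 2 libraries were identical, and 0 columns belonged to other samples.

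Groups came from titles, genotypes and treatments. Replicates were numbered in record order, so numbers pair no animals. The test was limma 3.58.1 (R 4.3.3), two-sided and with its mean-variance trend, on log2(RPKM + 1), with Benjamini-Hochberg adjustment over all genes tested and a threshold of 0.05. Only genes with an RPKM of 1 or more in 3 or more libraries of a fit were tested. The 20 short-term libraries and the 13 of the tumour arm were fitted apart. Changes on this scale understate those of low genes. The procedure was tested on simulated data. Alternatives were a pseudocount of 0.1, no filter, a filter at 5 RPKM, rescaling by the median ratio, sample weights, only the groups compared, sex or keratin RNA as covariate, males only, libraries without keratin RNA, subsets of the 4-OHT livers, and leaving out each library. Males only in the tumour arm, the sex term, the ratio of Cyp8b1 to Cyp7a1, and the summaries of where MYC tumour replicate 1 lay were chosen after seeing the data. Named are the 10 genes, up to 4 called genes per direction and list by size, Slc51a and Slc51b, and the 3 profiles nearest to Cyp7a1 and Cyp8b1. The members and lists were chosen with earlier results of these data known.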

Additional observations from a re-analysis of the deposited data

Results flagged for a closer look

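Nr0b2 in 4-OHT liver replicate 1 read 19.8 RPKM, while the other 6 4-OHT livers read 9.17 to 11.8. On the log2(RPKM + 1) scale the gap to the nearest of them was 0.68 of the whole range, above Dixon's 95% critical value for 7 samples. It was the only one of 50 combinations of gene and group tested in this way that passed, where chance gives about 1 in 20. This library was not low or high in the other 9 genes by the same test.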

How the results depend on the processing

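The count of bile acid genes called was 0 under every setting run for Ex3 against WT livers, MYC+Ex3 against MYC livers and the interaction. For MYC against WT livers (3 lower) it was 6 after rescaling, 5 with sample weights, 1 among libraries without keratin RNA, 0 among males, and 1 to 6 when 1 library was left out: 1 without MYC replicate 1 or WT replicate 1, 5 without MYC+Ex3 replicate 3 and 6 without MYC replicate 3. For MYC+Ex3 against WT livers (4 lower) it was 7 with sample weights, 2 among males, and 3 to 6 when 1 library was left out. For MYC+Ex3 against Ex3 livers (4 lower) it was 7 with sample weights, 2 with no filter, 2 with only the groups compared, 1 among males, and 0 to 4 when 1 library was left out, with the libraries named above. For MYC tumours (4 lower) it was 2 with no filter, 1 with S14 controls, 0 with S15 controls, 0 among males, and 0 to 8 when 1 library was left out: 8 without MYC tumour replicate 1, 2 without replicate 2 and 0 without replicate 3. For MYC+Ex3 tumours (5 lower) it was 3 with no filter, 3 with S14 controls, 3 with S15 controls, 3 among males, and 3 to 6 when 1 library was left out, with 3 without MYC+Ex3 tumour replicate 1 or 2 or 4-OHT replicate 1, 3 or 5. For MYC+Ex3 against MYC tumours (0) it was 0 to 2 when 1 library was left out, 2 without MYC tumour replicate 1 and 1 without replicate 3. Apart from fewer samples where libraries are left out, the cause was not tested. The share of all genes called under each setting is not given beside these counts. Their moves are thus not shown to be particular to the bile acid genes.

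Among the single-gene changes printed above, directions turned only for ones that had not passed the threshold. Among libraries without keratin RNA the change of Cyp8b1 in Ex3 livers was 0.067, that of Cyp7a1 in MYC+Ex3 livers -0.62 against WT and -0.23 against MYC. With sample weights Cyp7a1 in MYC+Ex3 livers was -0.041 against WT. With S15 controls Abcb11 was 0.18 in MYC tumours and 0.059 in MYC+Ex3 tumours. When 1 library was left out, the ranges that crossed 0 were -0.16 to 0.47 for Cyp7a1 in MYC+Ex3 against WT livers, -0.40 to 0.34 for Cyp7b1 in the same comparison, -1.84 to 0.24 for Cyp7a1 and -0.22 to 0.19 for Abcb11 in MYC tumours, -0.91 to 0.074 for Nr0b2 in MYC+Ex3 tumours, and -1.30 to 0.35 for Cyp8b1 and -1.26 to 0.021 for Baat in MYC+Ex3 against MYC tumours. No paired analysis was possible because the number in each title differs from that of every other library, so the groups share no replicate number. Every gene rested on at least 25 reads per library, and the number of libraries, 3 in each tumour group, limits the precision.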

Other observations

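The balance of Cyp8b1 to Cyp7a1, which in the textbook view sets how much of the bile acid pool becomes cholic acid, was taken as the log2 ratio of their RPKM within each library, a measure chosen after the values of both genes had been seen. In 4-OHT livers the ratio ran from 0.27 to 2.10 (mean 0.94 ± 0.61 SD, n = 7), so that Cyp8b1 exceeded Cyp7a1 in all 7. In MYC tumours it was 0.05, 0.07 and 1.45. In MYC+Ex3 tumours it was -2.21, -1.11 and -1.55, and Cyp7a1 exceeded Cyp8b1 in all 3. MYC+Ex3 tumours differed from 4-OHT livers by -2.56 (exact permutation test, two-sided, p = 0.00833, the smallest that 120 arrangements allow), which adjusted over the 8 comparisons made of this ratio gave 0.0667. They differed from MYC tumours by -2.15, where the smallest exact p for 3 against 3 is 0.10 and was reached. Neither the exact nor the adjusted p-values cover the choice of this pair of genes, so they are not support for a shifted balance.

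In the short-term arm the mean ratio was 1.47 ± 1.21 (SD, n = 5) in WT, 0.06 ± 1.12 in Ex3, 1.37 ± 1.93 in MYC and 0.03 ± 1.01 in MYC+Ex3 livers. Ex3 and MYC+Ex3 livers each had an exact permutation p of 0.0794 against WT, two-sided, which adjusted over the 8 comparisons was 0.20 for both. The ranges overlapped: the lowest WT liver was at -0.22 and the highest Ex3 liver at 1.36.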
